A study of Homo sapiens with 12 samples.

Results

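The 55 genes described here carry out mitosis: they encode the cyclins and kinases that start it, the centromere and kinetochore proteins that attach chromosomes to the spindle, the motors that build the spindle, and the condensin subunits that compact the chromosomes. They were taken from a list of mitosis genes by their current or older symbols, with no measured value in the rule. All 55 were among the 19775 genes measured. Each gene is represented by the probe set, of those naming 1 gene, with the highest mean over the 12 arrays. Levels are log2 RMA values, in which a difference of 1 is a factor of 2, and levels of different genes are not compared because each probe set has its own response.

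RNA came from U937 cells, a human monocytic line grown from a histiocytic lymphoma. The cells carried either an EVI1 expression vector or the empty vector, and were given TPA at 50 ng/ml or its solvent, ethanol, for 24 h. TPA, a phorbol ester, switches on protein kinase C and makes monocytic lines mature toward macrophage-like cells. Each of the 4 groups had 3 arrays that the submitters call biological replicates. The cells with the EVI1 vector are called EVI1-labelled. No label says whether the arrays stand for separate transductions, so p-values measure the spread between these cultures.

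The arrays of a group correlated at 0.993 to 0.998, and array medians lay between 5.07 and 5.11. A group mean below 5.07, a level chosen after the data were seen, is not shown to be above background. Expression of EVI1 itself was not shown, because the 5 probe sets for its gene, MECOM, read 2.59 to 3.32 on all 12 arrays. The stretch of the gene in the vector may not be the one these probes read. Of 8 monocytic markers 7 were measured, and all 7 were at or above 5.07 in every group. Among them the common leukocyte antigen PTPRC averaged 9.57 in empty vector cells in ethanol and the myeloperoxidase gene MPO 6.01. Markers of other cell types were at or above 5.07 in every group for 3 of 6 epithelial and fibroblast, 2 of 3 erythroid, 2 of 4 lymphoid and 3 of 4 megakaryocyte genes. The collagen gene COL1A1, the highest of the epithelial and fibroblast list, averaged 7.27 to 7.38 and EPCAM 3.00 to 3.34, so a signal above 5.07 does not by itself show a cell type.

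As background, mitosis begins when CDK1, bound to a B-type cyclin, is freed of its inhibitory phosphates by the CDC25 phosphatases. Kinetochores then capture spindle microtubules through the NDC80 complex, and those not yet attached hold the spindle checkpoint on. Once it is satisfied, the anaphase promoting complex with CDC20 marks securin and cyclin B for destruction and separase cuts cohesin. Many of these genes are transcribed late in the cell cycle through the MuvB complex, B-MYB and FOXM1, often at a promoter element named the cell cycle genes homology region, and myeloid lines given a phorbol ester are known to leave the cell cycle as they differentiate.

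TPA lowered nearly the whole group. Of the 55 genes 54 fell in empty vector cells and none rose, against 22.5% of all 19775 genes called lower and 43.2% called in either direction (limma, Benjamini-Hochberg adjusted p below 0.05). The median change of the 55 was -4.55 and that of all genes was 0.02. In EVI1-labelled cells the same count of 54 fell and none rose, with a median of -3.80, against 20.6% of all genes called lower and 40% called either way. The exception in both populations was CDC25C. Falls of 4 or more were found for 34 genes in empty vector cells, and 22 with the EVI1 vector. For each of the 54 genes, every TPA array lay below every ethanol array of its population, which held for 25.3% and 23.8% of all genes. The largest adjusted p among the 54 was that of INCENP in both populations. The RNA is from whole cultures, so fewer cells in mitosis and less RNA per mitotic cell cannot be told apart. The gap between 3′ and 5′ control probe sets is a measure of RNA quality, and a smaller gap goes with more intact RNA. For ACTB the gap was smaller in TPA (1.17 to 1.64) than in ethanol (1.72 to 2.01), while that of GAPDH overlapped (0.30 to 0.61 in TPA and 0.39 to 0.80 in ethanol). The part of RNA quality in these falls was not tested.

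**Figure D1:**
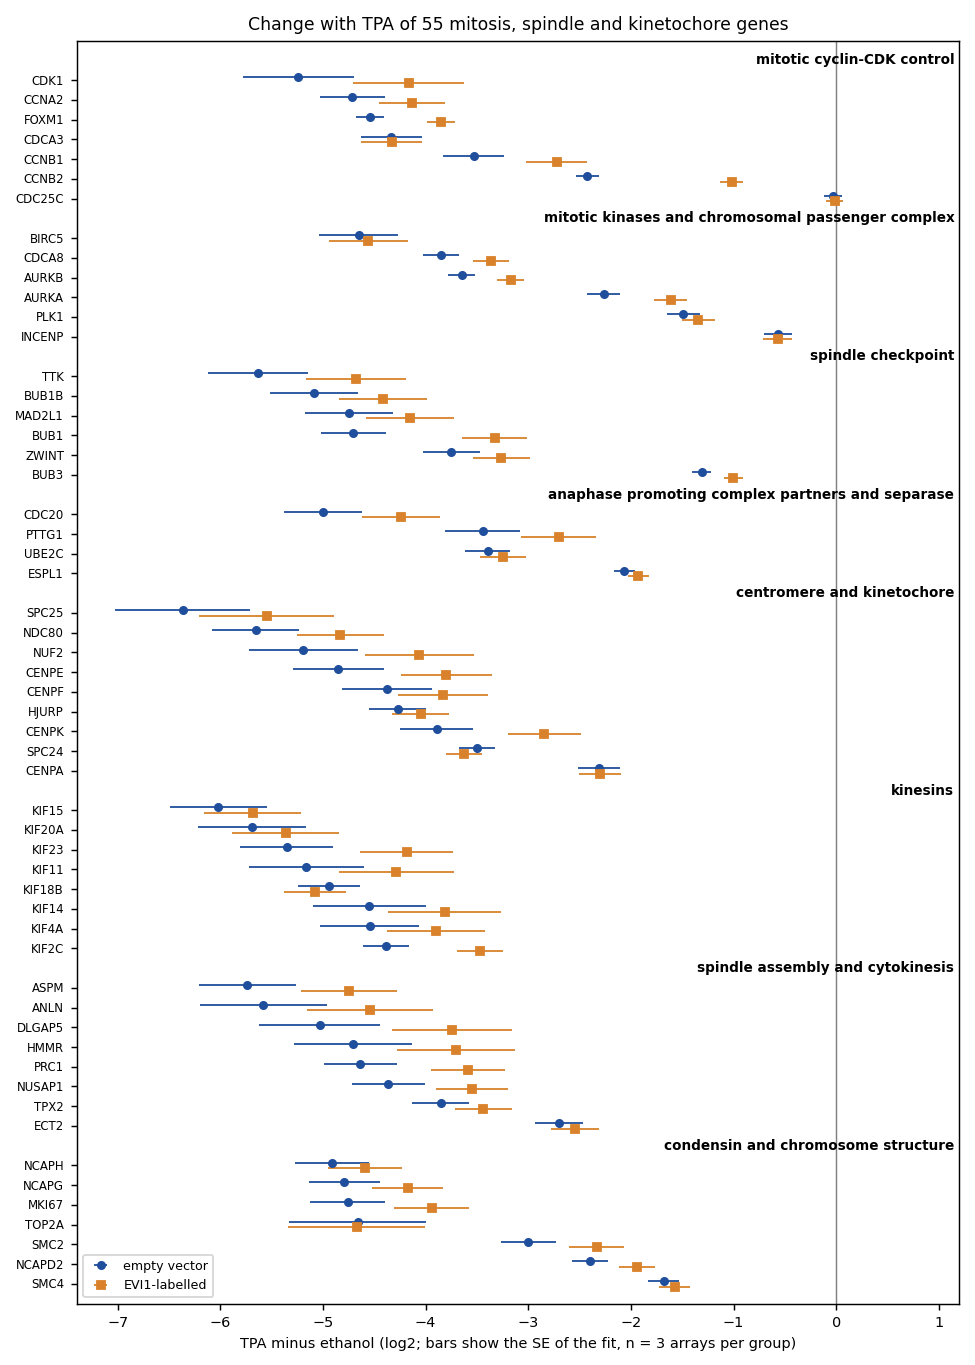
Change of each of the 55 mitosis genes with TPA (TPA minus ethanol, log2 signal) in both cell populations, grouped by role; circles (empty vector) and squares (EVI1-labelled) are limma estimates and bars their SE, with n = 3 arrays per group. All genes but CDC25C and INCENP lie at -1 or lower in both populations, and 51 of 55 lie closer to 0 in EVI1-labelled cells. Of all 19775 genes, 10089 had a difference in response above 0. Only 1 of the 55 passed the test of this difference. Replicate 1 in TPA read high for most of the 55, and more so in EVI1-labelled cells.

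Among the cyclins, CDK1 and their regulators, 6 of 7 genes fell in both populations. CDK1, the kinase that drives entry into mitosis, read 11.54, 11.40 and 11.27 in empty vector cells in ethanol and 7.28, 5.88 and 5.33 in TPA. In EVI1-labelled cells it read 11.47, 11.40 and 11.29 in ethanol and 8.79, 6.45 and 6.42 in TPA. The array of replicate 1 was the highest of its group in TPA in both populations, and no TPA array reached an ethanol array. CDK1 changed by -5.24 ± 0.54 (SE; adjusted p = 1.64e-06, limma) in empty vector cells and by -4.17 ± 0.54 (adjusted p = 1.86e-05) in EVI1-labelled cells. Cyclin A2, CCNA2, changed by -4.71 and -4.13, and cyclin B1, CCNB1, by -3.53 and -2.72. CDCA3, a trigger of mitotic entry, changed by -4.33 in both populations. CDC25C, the phosphatase that activates CDK1, read 4.08, 4.21 and 4.13 in ethanol and 4.06, 4.04 and 4.23 in TPA in empty vector cells, and 4.06, 4.22 and 4.23 and then 4.06, 4.22 and 4.18 in EVI1-labelled cells. All these values are below 5.07, and its other probe sets also averaged no more than 4.25 in any group. Its changes of -0.03 ± 0.09 (95% interval -0.21 to 0.15) and -0.02 ± 0.09 (-0.20 to 0.17) are therefore those of a probe set not shown to be above background.

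FOXM1, a transcription factor for late cell cycle genes, read 9.23, 9.19 and 9.24 in ethanol and 4.71, 4.45 and 4.87 in TPA in empty vector cells. On the EVI1-labelled arrays it read 9.32, 9.15 and 9.20 and then 5.58, 5.03 and 5.51. Its TPA arrays lay much closer together than those of CDK1. FOXM1 changed by -4.54 ± 0.14 (adjusted p = 1.10e-11, limma) and by -3.85 ± 0.14 (adjusted p = 6.33e-11). CCNB2, cyclin B2, had the smallest fall of the cyclins: its empty vector arrays read 11.80, 11.64 and 11.70 in ethanol and 9.44, 9.07 and 9.36 in TPA. The EVI1-labelled cells read 11.70, 11.68 and 11.74 and 10.85, 10.74 and 10.47. CCNB2 changed by -2.42 ± 0.11 (adjusted p = 4.79e-10) and by -1.02 ± 0.11 (adjusted p = 3.49e-06), with TPA arrays of both populations well above 5.07.

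The mitotic kinases and the chromosomal passenger complex, which corrects faulty attachments and drives cytokinesis, all fell, 6 of 6 in both populations, with medians of -2.96 and -2.39. BIRC5, survivin, the subunit that brings the complex to the centromere, read 10.21, 10.07 and 10.09 in ethanol and 6.12, 5.05 and 5.24 in TPA in empty vector cells. In EVI1-labelled cells the values were 10.02, 9.91 and 10.08 and 6.65, 4.83 and 4.85. Replicate 1 was again the highest TPA array in both. BIRC5 changed by -4.65 ± 0.39 (adjusted p = 1.65e-07, limma) and -4.56 ± 0.39 (adjusted p = 2.49e-07). INCENP, the scaffold of the complex, had the smallest fall: 5.74, 5.86 and 5.64 against 5.33, 5.32 and 4.89 in empty vector cells, and 5.66, 5.92 and 5.76 against 5.21, 5.45 and 4.97 in EVI1-labelled cells. Its levels lay near 5.07 throughout, where differences are compressed. INCENP changed by -0.57 ± 0.14 (adjusted p = 0.00383) and -0.57 ± 0.14 (adjusted p = 0.00394). The kinase of the complex, AURKB, changed by -3.65 and -3.17, and its borealin subunit CDCA8 by -3.85 and -3.36. AURKA, the spindle pole kinase, changed by -2.27 and -1.61, and PLK1, polo-like kinase, by -1.49 and -1.34.

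All 6 spindle checkpoint genes fell in both populations, with medians of -4.73 and -3.74, but over a wide range of sizes. TTK, the kinase MPS1 that starts checkpoint signalling, read 9.89, 9.88 and 9.88 in ethanol and 4.75, 3.99 and 4.01 in TPA in empty vector cells. In EVI1-labelled cells it read 9.84, 9.88 and 9.72 and 6.81, 4.30 and 4.30. All of these TPA values except replicate 1 of EVI1-labelled cells were below 5.07. TTK changed by -5.63 ± 0.49 (adjusted p = 2.49e-07, limma) and -4.68 ± 0.49 (adjusted p = 1.96e-06). BUB3, an adaptor that also serves outside the checkpoint, read 11.89, 11.80 and 11.80 and then 10.67, 10.37 and 10.52 in empty vector cells, and 11.86, 11.78 and 11.76 and then 10.87, 10.85 and 10.67 in EVI1-labelled cells. It stayed far above background in TPA and changed by -1.31 ± 0.09 (adjusted p = 2.64e-08) and -1.0 ± 0.09 (adjusted p = 4.95e-07). BUB1, the kinase that recruits shugoshin and the checkpoint proteins to kinetochores, read 10.30, 10.27 and 10.14 and then 6.26, 5.26 and 5.08 in empty vector cells. On the EVI1-labelled arrays it read 10.10, 10.05 and 10.03 and then 7.58, 6.37 and 6.25. BUB1 changed by -4.70 ± 0.32 (adjusted p = 2.00e-08) and -3.33 ± 0.32 (adjusted p = 8.29e-07). Of the rest, the inhibitors of CDC20 BUB1B and MAD2L1 changed by -5.09 and -4.75 in empty vector cells, and ZWINT, a kinetochore partner of ZW10, by -3.75.

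Of the genes that act at anaphase onset, 4 of 4 fell. CDC20, the activator of the anaphase promoting complex, read 11.73, 11.70 and 11.65 in ethanol and 7.53, 6.35 and 6.21 in TPA in empty vector cells, against 11.38, 11.39 and 11.37 and 8.20, 6.75 and 6.48 in EVI1-labelled cells. CDC20 changed by -5.00 ± 0.38 (adjusted p = 6.79e-08, limma) and -4.24 ± 0.38 (adjusted p = 4.44e-07). ESPL1, separase, fell least of the 4, from 10.29, 10.33 and 10.07 to 8.06, 8.37 and 8.07 in empty vector cells and from 10.27, 10.27 and 10.16 to 8.42, 8.23 and 8.27 in EVI1-labelled cells. Its TPA arrays were close together and showed no high replicate 1 in empty vector cells. ESPL1 changed by -2.06 ± 0.10 (adjusted p = 1.06e-09) and -1.93 ± 0.10 (adjusted p = 2.75e-09). Securin, PTTG1, which inhibits separase, changed by -3.44 and -2.70, and UBE2C, the ubiquitin-conjugating enzyme of the complex, by -3.40 and -3.24.

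All 9 centromere and kinetochore genes fell, with medians of -4.38 and -3.83. SPC25, a subunit of the NDC80 complex, had the largest estimated fall of the 55 genes in empty vector cells: 10.41, 10.30 and 10.20 in ethanol against 4.92, 2.96 and 3.93 in TPA. The EVI1-labelled cells read 10.28, 10.26 and 10.11 and 6.74, 3.84 and 3.43. Its TPA values, except replicate 1 of EVI1-labelled cells, were below 5.07 and spread over more than 1 unit. SPC25 changed by -6.37 ± 0.66 (adjusted p = 1.56e-06, limma) and -5.55 ± 0.66 (adjusted p = 7.19e-06). The other subunits of this complex, NDC80, NUF2 and SPC24, changed by -5.66, -5.19 and -3.50 in empty vector cells and by -4.83, -4.06 and -3.63 in EVI1-labelled cells. CENPA, the histone variant that marks centromeres, had the smallest fall of the 9: 8.86, 8.96 and 9.14 against 6.34, 6.66 and 7.02, and 9.01, 9.02 and 9.06 against 6.96, 6.18 and 7.05 in EVI1-labelled cells. Unlike most genes of the group, its highest TPA array was replicate 3 in both populations. CENPA changed by -2.31 ± 0.20 (adjusted p = 2.94e-07) and -2.30 ± 0.20 (adjusted p = 3.78e-07), and its chaperone HJURP by -4.27 and -4.05. The kinetochore motor CENPE changed by -4.85 and -3.80, the kinetochore protein CENPF by -4.38 and -3.83, and CENPK of the inner kinetochore by -3.89 and -2.84.

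The 8 kinesins, motors that move along microtubules, had the lowest median of the role groups, -5.05 in empty vector cells, and -4.24 with the EVI1 vector, and all 8 fell. KIF15, which helps hold spindle poles apart, read 9.84, 9.87 and 9.75 in ethanol and 4.61, 3.25 and 3.54 in TPA in empty vector cells. In EVI1-labelled cells it read 9.78, 9.72 and 9.66 and 5.52, 3.34 and 3.24. KIF15 changed by -6.02 ± 0.47 (adjusted p = 9.70e-08, limma) and -5.69 ± 0.47 (adjusted p = 2.14e-07). The microtubule depolymerase KIF2C had the smallest fall of the 8, from 11.29, 11.17 and 11.19 to 7.20, 6.76 and 6.53 in empty vector cells. On the EVI1-labelled arrays it read 11.17, 11.06 and 11.15 and then 8.30, 7.50 and 7.18. KIF2C changed by -4.39 ± 0.22 (adjusted p = 1.28e-09) and -3.47 ± 0.22 (adjusted p = 1.64e-08), and its TPA arrays remained above 5.07. KIF11, the motor that separates the poles, changed by -5.16 and -4.29. KIF20A and KIF23, which work in cytokinesis, changed by -5.69 and -5.35 in empty vector cells and -5.36 and -4.18 in EVI1-labelled cells.

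Among the 8 spindle assembly and cytokinesis genes, all of which fell, ASPM, a spindle pole protein, had the largest fall. It read 10.02, 9.92 and 9.87 in ethanol and 4.87, 3.85 and 3.87 in TPA in empty vector cells, and 9.26, 9.18 and 9.06 and 5.97, 3.76 and 3.53 in EVI1-labelled cells. ASPM changed by -5.74 ± 0.47 (adjusted p = 1.55e-07, limma) and -4.75 ± 0.47 (adjusted p = 1.27e-06). ECT2, the exchange factor that activates RhoA at the cleavage furrow, had the smallest, from 8.35, 7.98 and 8.23 to 5.45, 5.24 and 5.77 and from 8.32, 8.22 and 8.12 to 6.39, 5.41 and 5.22. ECT2 changed by -2.70 ± 0.24 (adjusted p = 2.89e-07) and -2.55 ± 0.24 (adjusted p = 6.33e-07). The furrow scaffold ANLN changed by -5.58 and -4.54, the midzone bundler PRC1 by -4.64 and -3.59, and the spindle assembly factor TPX2 by -3.85 and -3.44. The microtubule-associated proteins DLGAP5, HMMR and NUSAP1 changed by -5.03, -4.71 and -4.36 in empty vector cells.

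Condensin and chromosome structure genes split by how far they fell, though 7 of 7 passed the test in both populations. NCAPH, the kleisin subunit of condensin I, read 10.01, 9.98 and 10.00 in ethanol and 5.87, 4.80 and 4.58 in TPA in empty vector cells, and 9.92, 9.93 and 9.95 and 6.34, 4.76 and 4.92 in EVI1-labelled cells. NCAPH changed by -4.91 ± 0.36 (adjusted p = 4.59e-08, limma) and -4.59 ± 0.36 (adjusted p = 1.09e-07). SMC4, an ATPase shared by both condensins, went from 12.81, 12.78 and 12.69 to 11.32, 10.94 and 10.98 and from 12.75, 12.77 and 12.79 to 11.61, 11.11 and 10.87. SMC4 changed by -1.68 ± 0.15 (adjusted p = 4.36e-07) and -1.57 ± 0.15 (adjusted p = 1.01e-06) and kept a high signal in TPA. Its partner ATPase SMC2 changed by -3.00 and -2.33. The condensin I subunits NCAPG and NCAPD2 changed by -4.79 and -2.40 in empty vector cells. TOP2A, the topoisomerase that untangles sister chromatids, changed by -4.66 and -4.67, and MKI67, the proliferation antigen Ki-67 that coats mitotic chromosomes, by -4.76 and -3.94.

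The background limits how large a fall can appear. In TPA the mean of 16 of the 55 genes lay below 5.07 in empty vector cells and that of 7 in EVI1-labelled cells, against 1 gene, CDC25C, in each ethanol group. A mean above 5.07 is not thereby shown to be above background, as several markers of other cell types also lay above it. More genes than these may be limited in this way. A second view of the same genes came from other probe sets. For 28 genes there were 50 further probe sets, and 40 of these averaged at least 5.07 in empty vector cells in ethanol. Of those 40, TPA lowered 33 by 1 or more in empty vector cells, and 31 with the EVI1 vector. The probe sets used for FOXM1, PTTG1 and CENPA are of a type whose probes may match other sequences as well.

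Other genes of the same processes were set beside the 55. All 39 measured genes of 40 in a second mitosis list fell in both populations, with medians of -3.27 and -2.92, led in empty vector cells by the mitotic kinase PBK (-5.56) and by DEPDC1B (-5.31). Of 22 measured constitutive centromere and kinetochore genes, 21 fell in empty vector cells, and 20 with the EVI1 vector, with medians of -2.20 and -2.10. CENPU changed by -4.89 and OIP5, which takes part in loading CENPA, by -4.86 in empty vector cells.

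The core of the anaphase promoting complex, whose partners CDC20 and UBE2C fell, gave another picture: 5 of 13 core subunits were lower and 2 higher in empty vector cells, with a median of -0.11. ANAPC5 changed by -1.21, ANAPC11 by -0.52, CDC26 by 0.42 and ANAPC16 by 0.32. The list of cohesin genes holds subunits of the ring that ESPL1 cuts, and loader and regulator genes. Of its 10 genes 7 were lower and 1, the loader gene MAU2, was higher, with a median of -0.31. The ATPases of the ring, SMC3 and SMC1A, changed by -1.50 and -1.40. In the list of MuvB and B-MYB genes, 8 of 11 were lower and 1 higher, with a median of -1.03. B-MYB itself, MYBL2, changed by -3.05. Of 43 DNA replication genes, 41 were lower and 2 higher, with a median of -3.12. MCM10 and CDT1, which act at replication origins, changed by -6.10 and -5.25, and RFC5, a clamp loader subunit, rose by 1.55. In EVI1-labelled cells these lists had 5 of 13, 6 of 10, 8 of 11 and 40 of 43 genes lower.

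Promoter sequences of the genes were searched because the group moved together. RefSeq windows on GRCh38.p14, from 250 bases before to 50 bases after each annotated start, were found for 48 of the 55 genes. AURKA, FOXM1, UBE2C, TTK, BIRC5, TPX2 and BUB3 had no entry. The core of the cell cycle genes homology region, TTTGAA, read as TTCAAA on the other strand, was present in 37 of the 48 (77.1%), against 18.2% of 27305 genes with a window. Within 50 bases of the start it was present in 62.5% of the 48 and 5.77% of all genes. The stretches below, each read on the gene's strand, are those of the genes whose arrays are given above and that hold the element, with the match in capitals. The shared core follows from this choice, and the stretches are shown for their varied flanks. KIF2C and NCAPH, whose arrays are also given above, had a window but no match. For BUB1 the capitals mark the variant TTCGAA.
CDK1: ctcgcacttggcTTCAAAgctggctcttgg
CCNB2: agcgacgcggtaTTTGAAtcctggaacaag
CDC25C: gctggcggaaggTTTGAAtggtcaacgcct
INCENP: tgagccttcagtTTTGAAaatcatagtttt
BUB1: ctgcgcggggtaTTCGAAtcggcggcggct
CDC20: cgacggttggatTTTGAAggagccaatagg
ESPL1: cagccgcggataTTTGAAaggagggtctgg
SPC25: aagtgcactaggTTTGAAatcggaaagttg
CENPA: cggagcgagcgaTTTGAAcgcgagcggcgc
KIF15: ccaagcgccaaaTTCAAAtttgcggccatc
ASPM: cggatgcaatcaTTCAAAtgaagcgccgcc
ECT2: agcagcttagttTTTGAAtcggttgtgg
SMC4: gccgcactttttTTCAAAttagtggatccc
These stretches lie at chr10:60778475-60778504 for CDK1, chr15:59105105-59105134 for CCNB2, chr11:62123989-62124018 for INCENP, chr1:43358904-43358933 for CDC20, chr12:53268256-53268285 for ESPL1, chr2:26786026-26786055 for CENPA, chr3:44761747-44761776 for KIF15, chr3:172750748-172750775 for ECT2 and chr3:160399563-160399592 for SMC4, all on the plus strand. On the minus strand are chr5:138331817-138331846 for CDC25C, chr2:110678045-110678074 for BUB1, chr2:168890416-168890445 for SPC25 and chr1:197146765-197146794 for ASPM. The first base of the match lay 29 bases before the start in CCNB2, 31 in ESPL1, 30 in CDC25C and 65 in CDC20, and 10 bases after it in CDK1. Where a gene held several matches, the match nearest an annotated start is shown. CDK1 held others on the gene's strand, at -69 and -13 from the same start and at -161 from another annotated start. CDC20 held another at -178 on the opposite strand.

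Genes with and without the element were set side by side. The median change with TPA in empty vector cells was -4.64 for the 37 genes that hold it and -4.39 for the 11 that do not. CDC25C, whose signal was not shown to be above background, holds it, and so does INCENP with the smallest called fall. The 250 bases before the start of SPC25 and of CDC25C, the genes with the largest and smallest estimated change in empty vector cells, are printed for comparison. Both had TPA means below 5.07, and in EVI1-labelled cells the estimate of KIF15 (-5.69) was past that of SPC25 (-5.55), so the ranks are only of estimates. Capitals mark TTTGAA and CCAAT matches on either strand.
SPC25: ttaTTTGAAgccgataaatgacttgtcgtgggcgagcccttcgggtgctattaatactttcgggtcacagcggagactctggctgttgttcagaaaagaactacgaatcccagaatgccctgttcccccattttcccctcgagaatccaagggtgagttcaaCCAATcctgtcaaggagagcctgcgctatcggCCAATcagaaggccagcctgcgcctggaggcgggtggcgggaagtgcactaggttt
CDC25C: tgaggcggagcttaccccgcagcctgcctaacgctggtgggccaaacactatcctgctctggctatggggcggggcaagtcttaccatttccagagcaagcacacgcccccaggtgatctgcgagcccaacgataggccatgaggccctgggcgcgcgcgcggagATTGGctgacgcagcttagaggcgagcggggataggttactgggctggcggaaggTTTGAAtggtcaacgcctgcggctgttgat
The first is chr2:168890431-168890680 and the second chr5:138331805-138332054, both on the minus strand, and the second is 1 of 4 windows listed for CDC25C. The SPC25 window holds 1 TTTGAA and 2 CCAAT matches and the CDC25C window 1 of each, and the match nearest the start of SPC25, in the stretch shown before, runs across the start.

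CCAAT, the site of the factor NF-Y, was found in 38 of the 48 genes (79.2%) and in 39.7% of all genes, and 29 genes held both CCAAT and TTTGAA. The variant TTCGAA was in 2 genes, BUB1 and NDC80 (4.17% against 1.82%). E2F site forms were less frequent: TTTGGCG was in 4 genes (8.33% against 2.32%) and TTTCGCG in 1 (2.08% against 1.6%). TTTAAA, a form searched after the other counts were known, was in 15 (31.2% against 14.5%). Of the other lists, TTTGAA was in 21 of 34 genes of the second mitosis list (61.8%), 5 of 11 MuvB and B-MYB genes (45.5%), 4 of 16 constitutive centromere genes (25%) and 1 of 37 DNA replication genes (2.7%). These matches of letters do not show that a factor binds there.

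The TPA arrays of replicate 1 read high for these genes and for the lists close to them. In empty vector cells the replicate 1 array was the highest of the 3 for 47 of 55 genes (85.5%, against 30.2% of all genes), by a median of 0.88 over the mean of the other arrays and with a range of -0.50 to 2.04. In EVI1-labelled cells it was the highest for 52 of 55 (94.5%, against 25.3%), by a median of 1.50. TTK showed it plainly in EVI1-labelled cells, with 6.81 against 4.30 on both other arrays. The median SD of the 55 genes was 0.08 in both ethanol groups, 0.56 in empty vector cells in TPA and 0.87 in EVI1-labelled cells in TPA, where that of all genes was 0.12 and 0.13. In ethanol replicate 1 was also the highest more often, for 70.9% and 65.5% of the 55, but by medians of 0.10 and 0.09. Replicates 2 and 3 in TPA were close together, with median absolute differences of 0.25 and 0.22.

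Replicate 1 in TPA was also the highest for 69.2% and 94.9% of the second mitosis list (medians of 0.30 and 0.81), 72.7% and 90.9% of the constitutive centromere genes (0.21 and 0.58) and 74.4% and 86% of the DNA replication genes (0.27 and 0.49). Genes that TPA raised in empty vector cells had medians of -0.02 and -0.04. Those that TPA lowered there had medians of 0.05 and 0.065, with replicate 1 the highest for 43.6% and 43.5% of them. Whether these lists differ from the 55 in this respect was not tested. The ACTB gap of the replicate 1 arrays in TPA was 1.17 and 1.23, each the lowest of its group, the other TPA arrays reading 1.24 to 1.64. Their GAPDH gap was 0.40 and 0.30, the lowest in EVI1-labelled cells but not in empty vector cells, where replicate 3 read 0.36. The part of RNA quality in the high replicate 1 values was not tested. With both these arrays left out, a setting listed with the alternatives, 54 of the 55 genes again fell in both populations, against 21.4% and 19.3% of all genes called lower.

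**Figure D2:**
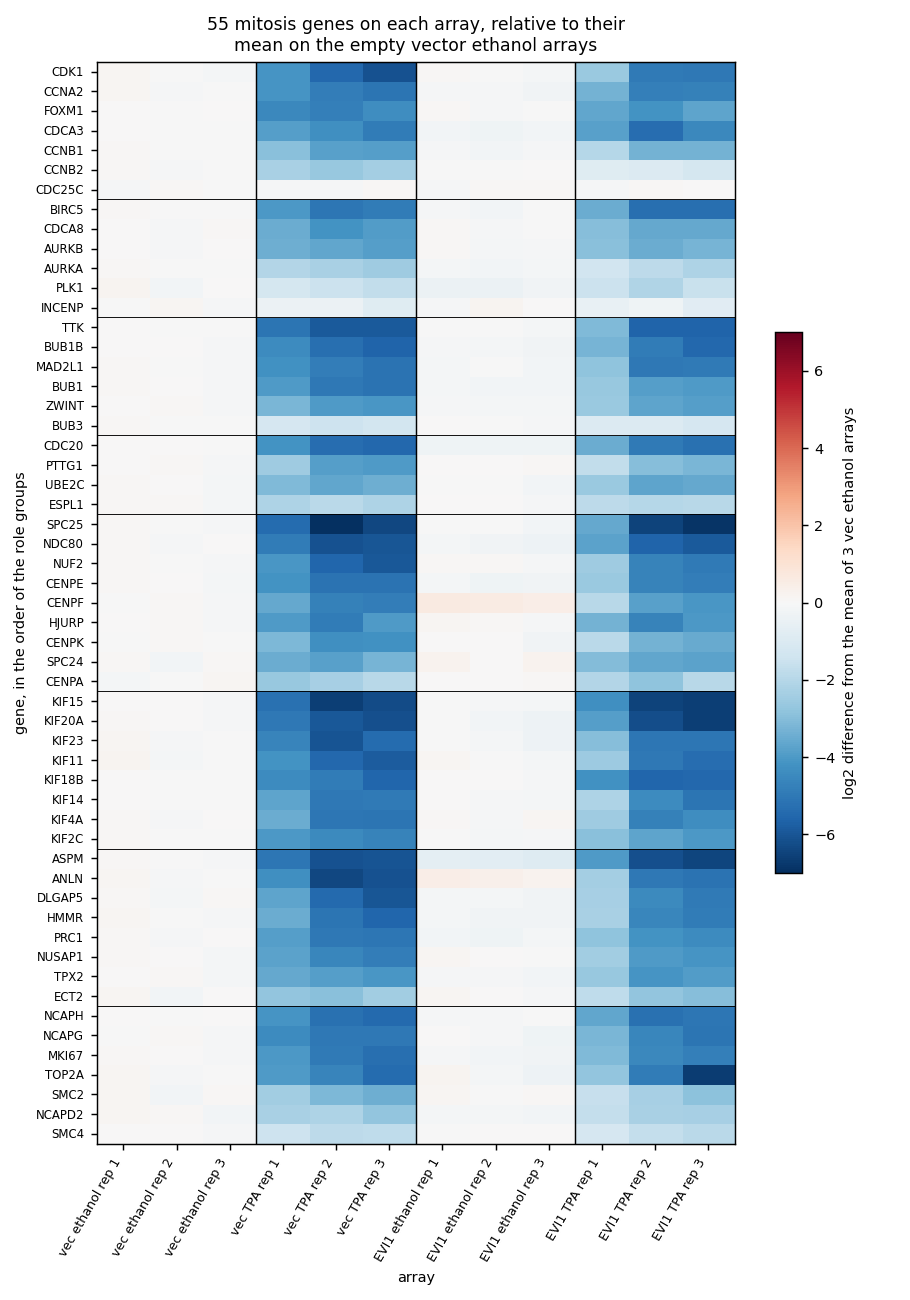
Level of the 55 genes on each of the 12 arrays, each gene shown as its difference from its mean on the ethanol arrays of empty vector cells (log2 signal), with genes in rows by role and arrays in columns by group. The ethanol arrays look alike, all TPA arrays are low, and replicate 1 is the least low TPA array for most genes in both populations.

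After TPA, 4 of the 55 genes were higher in EVI1-labelled than in empty vector cells and none was lower, against 5.9% of all genes called higher and 11.2% called either way. The share of the 55 is close to that background. The 4 were CCNB2, FOXM1, BUB1 and KIF2C. Their TPA arrays did not overlap between the populations for CCNB2 and FOXM1, as for 11.9% of all genes higher in EVI1-labelled cells, whereas for BUB1 and KIF2C the lowest EVI1-labelled array read below the highest empty vector array. Over all 55 genes the median difference was 0.50, 50 estimates were above 0 and 5 below, and the range ran from -0.22 for PLK1 to 1.40 for CCNB2. Of all 19775 genes, 10242 had an estimate above 0.

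CCNB2 in TPA, at 10.85, 10.74 and 10.47 in EVI1-labelled and 9.44, 9.07 and 9.36 in empty vector cells, differed by 1.40 ± 0.11 (95% interval 1.15 to 1.64; adjusted p = 6.32e-06, limma). Cyclin B2 was thus higher in EVI1-labelled cells on 3 of 3 replicate numbers, by 1.41, 1.67 and 1.11. FOXM1 differed by 0.70 ± 0.14 (adjusted p = 0.00419), BUB1 by 1.20 ± 0.32 (adjusted p = 0.0254) and KIF2C by 0.83 ± 0.22 (adjusted p = 0.0285). The FOXM1 means in TPA were 4.68 in empty vector and 5.37 in EVI1-labelled cells. The first is below 5.07, so this difference is measured from a level not shown to be above background. Next in order were AURKB at 0.43 (adjusted p = 0.0536), AURKA at 0.50 (0.0642) and BUB3 at 0.28 (0.0708), which did not pass. In all, 18 of the 55 had an unadjusted p below 0.05, against 22.4% of all genes.

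The calls for BUB1 and KIF2C were lost without any 1 of 3 arrays. Without empty vector replicate 2, empty vector replicate 3 or EVI1-labelled replicate 1 in TPA, the adjusted p of BUB1 became 0.101, 0.110 and 0.0722, and that of KIF2C 0.0891, 0.118 and 0.0685. CCNB2 and FOXM1 passed with any 1 array left out. CCNB2 has 2 other probe sets, which averaged 5.51 and 3.40 over the 12 arrays and did not show the difference (-0.09 and -0.16 in TPA). The other probe sets of BUB1 did not show its difference either, at 0.02 to 0.11, and all averaged below 5.07 in TPA. The brightest of them in ethanol averaged 6.48 in empty vector cells and differed by 0.05 in TPA. The second probe set of KIF2C differed by 0.71. The number of the 55 genes called higher was 2 without any 1 of those 3 arrays, 13 without empty vector replicate 1 and 10 without EVI1-labelled replicate 3. The median difference was 0.01 without EVI1-labelled replicate 1, 0.74 without empty vector replicate 1 and 0.83 without EVI1-labelled replicate 3.

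Same-numbered TPA arrays of the populations deviated together, so the numbers were taken to pair these cultures. With the replicate number as a block in a fit of the 2 TPA groups, chosen after seeing the data, 21 of the 55 genes were higher in EVI1-labelled cells, by 0.47 to 1.40, and none lower, against 4.15% of all genes called higher. With both TPA arrays of number 1 left out instead, 21 genes were also higher, against 4.14%. The calls shared 20 genes, with AURKA called in the first and CENPE in the second alone, and both held the 4 genes named above. Both settings lessen the part of the same high replicate 1 values and share the other TPA arrays. The shared calls are therefore not independent of each other. Among the 20 were DLGAP5, NUF2, PTTG1, ANLN, CDK1 and MKI67. Without number 1, the empty vector TPA means of DLGAP5, NUF2, ANLN and MKI67 were below 5.07 (4.49, 4.0, 4.665 and 5.035). With the block in a fit of all 4 groups the count was 11, against 6.7%.

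Within each replicate number, 31 of the 55 genes were higher in EVI1-labelled cells in all 3 numbers, against 22% of all genes. Another 17 were higher in 2 numbers and 7 in 1. The median difference was 0.96 for number 1, with 52 genes higher, 0.40 for number 2, with 41, and 0.32 for number 3, also with 41. The sizes depended on the pair: the median of number 1 was well above those of the other numbers.

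**Figure D3:**
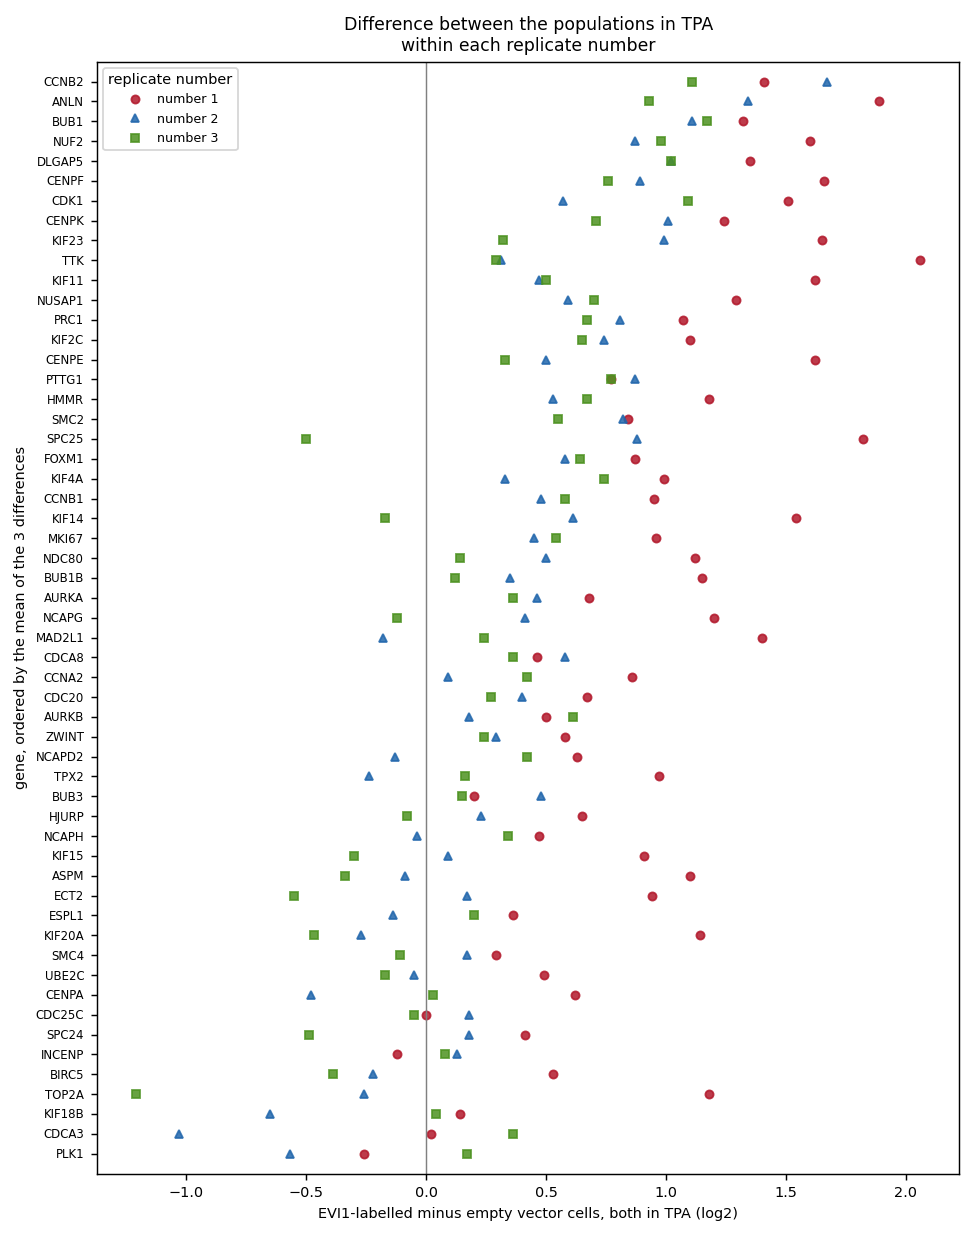
Difference between EVI1-labelled and empty vector cells in TPA (log2 signal) for each of the 55 genes, within replicate numbers 1 (circles), 2 (triangles) and 3 (squares); genes are ordered by the mean of the 3 differences and the vertical line is at 0. The medians are 0.96, 0.40 and 0.32, and the number of genes above 0 is 52, 41 and 41.

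Of the 39 genes of the second mitosis list, 3 were higher in EVI1-labelled cells in TPA, against the 5.9% of all genes, with CKS2, a CDK-binding subunit, at 0.74 and ARHGAP11A at 1.04. Of the 22 constitutive centromere genes, 3 were higher, with CENPH at 0.77. Of the 43 DNA replication genes 8 were higher and of the 11 MuvB and B-MYB genes 3. Of the 13 core subunits of the anaphase promoting complex 1 was lower, and of the 10 cohesin genes 1 was lower and 1 higher.

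The difference in TPA response between the populations was tested itself. CCNB2 was the 1 gene of 55 that passed, against 1.98% of all genes called either way and 0.936% called higher. Its fall with TPA was smaller in EVI1-labelled cells by 1.40 ± 0.16 (95% interval 1.06 to 1.75; adjusted p = 5.95e-04, limma). The median difference over the 55 genes was 0.65, the estimates were above 0 for 51 genes, and they ran from -0.14 for KIF18B to 1.40. Of all 19775 genes, 10089 had an estimate above 0. At an unadjusted p below 0.05 there were 7 genes, against 12.5% of all genes, which is near the share of the 55. For CCNB2 the call was lost when the mean of all its probe sets was used, 2 of them dim, giving 0.34 (adjusted p = 0.240). BUB1 had a difference of 1.38 ± 0.45 (adjusted p = 0.175), KIF2C of 0.92 ± 0.32 (0.205) and FOXM1 of 0.69 ± 0.19 (0.0976). Without both TPA arrays of number 1, 12 of the 55 passed, all as smaller falls in EVI1-labelled cells by 0.65 to 1.40, against 0.86% of all genes called higher. They were CCNB1, CCNB2, BUB1, CDC20, PTTG1, CENPE, CENPK, NUF2, KIF2C, DLGAP5, PRC1 and ANLN. This setting leaves only replicates 2 and 3 in each TPA group. Their mean in empty vector cells was below 5.07 for CENPE, CENPK, NUF2, DLGAP5 and ANLN, so the size of these falls is limited by background. For CENPE and NUF2 the EVI1-labelled mean was below 5.07 as well (4.61 and 4.925). Leaving out 1 array at a time gave 1 to 3 genes: BUB1 joined CCNB2 without empty vector replicate 1 in TPA (adjusted p = 0.0475), FOXM1 without EVI1-labelled replicate 2 (0.0154), and AURKA and KIF2C without EVI1-labelled replicate 3 (0.0313 and 0.0407).

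**Figure D4:**
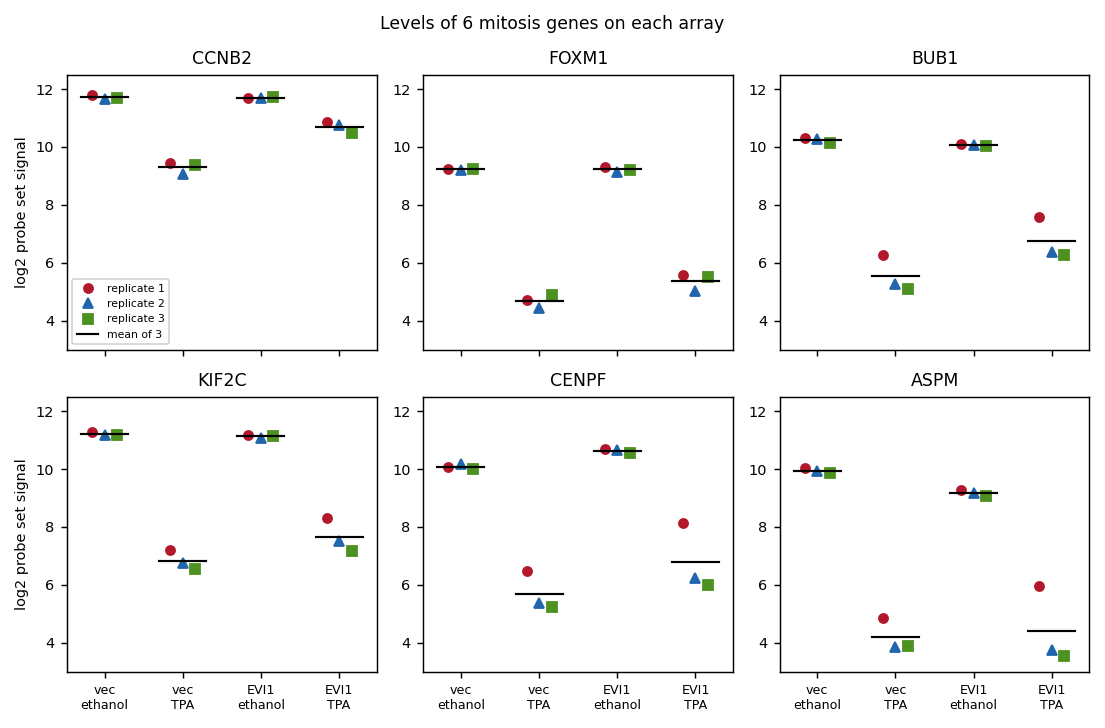
Level (log2 RMA signal) of 6 of the genes on each array, by population and treatment; circles, triangles and squares are replicates 1, 2 and 3, and lines are group means. CCNB2 arrays in TPA do not overlap between the populations, and the BUB1 and KIF2C arrays of replicate 1 are the highest of their TPA groups.

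In ethanol, 0 of the 55 genes differed between the populations by limma, against 3.27% of all genes. At an unadjusted p below 0.05 there was 1 gene, PLK1, with a difference of -0.37 ± 0.16 (limma adjusted p = 0.359), against 12.7% of all genes. Both counts come from the fit that pools the spread over all 4 groups. The median SD of the 55 was 0.08 in each ethanol group but 0.56 and 0.87 in the TPA groups. The SEs of these genes in ethanol are therefore wide, and the low counts do not show that the populations are alike. The median difference was -0.08, and the range ran from -0.77 for ASPM to 0.55 for CENPF. The arrays did not overlap for 14 genes, 12 of them lower in EVI1-labelled cells (11.4% of all genes) and 2 higher (10.6%).

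ASPM and CENPF had the largest differences. ASPM in ethanol read 10.02, 9.92 and 9.87 in empty vector and 9.26, 9.18 and 9.06 in EVI1-labelled cells, and the difference was -0.77 ± 0.47 (adjusted p = 0.577). CENPF read 10.07, 10.17 and 9.99 and 10.70, 10.64 and 10.55, a difference of 0.55 ± 0.44 (adjusted p = 0.707). The SE here is pooled over all 4 groups, and the SDs of these genes were larger in TPA than in ethanol. In a fit of the ethanol groups alone, 3 of the 55 were called, against 4.78% of all genes: ASPM lower (adjusted p = 0.00109), CENPF higher (0.00447) and CDC20 lower, at -0.31 (0.0308). The other probe sets of ASPM averaged 5.28 and 5.45 in empty vector and 4.64 and 4.75 in EVI1-labelled cells. A second CENPF probe set averaged 7.94 and 8.51, in the same direction as the first. In TPA neither ASPM (0.22 ± 0.47, adjusted p = 0.856) nor CENPF (1.10 ± 0.44, adjusted p = 0.144) passed the test between populations. From the other lists in ethanol, the kinesin KIF22 was lower in EVI1-labelled cells, with a difference of -0.41, and the origin recognition subunit ORC5 was higher by 0.57.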

How the data were processed

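The deposited values are log2 expression values that the authors computed by RMA; the submitters' processing notes name Affymetrix Expression Console 1.3. RMA forces arrays to 1 distribution, so a shift shared by most genes is removed, and dim probe sets have compressed differences. No detection calls were used. Of 54675 probe sets 41091 named 1 gene, giving 19775 genes, of which 19735 were found in a RefSeq gene table. A limma 3.58.1 model (R 4.3.3) with 1 mean per group was fitted over the 12 arrays. Its moderated tests were two-sided, with 8 residual degrees of freedom and a prior worth 5.22 more. A gene was called at a Benjamini-Hochberg adjusted p below 0.05, the adjustment running over the whole table. The fit was tested on simulated data. With 3 arrays a group, which limits the precision, SEs had a median of 0.11 in simple comparisons and of 0.15 in the difference in response. The genes, lists and tests were chosen with earlier results of these data known. Levels on every array are given for the largest and smallest TPA change in empty vector cells in each role group and for genes called between populations or in the difference in response. CENPF was added after its values were seen. Other lists give at most 2 called genes each way. Same-numbered arrays in TPA had deviations from their group means correlated at 0.13 to 0.415 across genes, all over 0.1. Numbers were therefore taken as pairs there, from the data and not the labels. No other pair of groups met this, though EVI1-labelled cells in ethanol and TPA came near it, at 0.091 to 0.208. The main fit used no pairing. Alternatives were other probe set rules, filters, normalizations, variance models, blocks and left-out arrays. A RefSeq promoter table (GRCh38.p14) gave sequences.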

Additional observations from a re-analysis of the deposited data

Results flagged for a closer look

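The difference in TPA response of CCNB2 stood out because the interaction of population and treatment passed the test across all genes. Its fall with TPA was smaller in EVI1-labelled cells by 1.40 ± 0.16 (SE; limma adjusted p = 5.95e-04), and each of the 3 EVI1-labelled TPA arrays read above each empty vector TPA array.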

How the results depend on the processing

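The falls of 54 of the 55 genes with TPA, in both populations, were called in every alternative, except that 53 were called without the genes of below-median mean, since fewer genes were tested. The counts between populations moved more. In TPA, where 4 genes were called, the counts were 7 without the genes of below-median mean, 2 in a fit of only the 2 groups, 11 with the replicate block, 21 with the replicate block in a fit of the 2 groups, 21 without both TPA arrays of number 1, 13 without all arrays of number 1 and 2 to 13 with 1 array left out. For the difference in response, where 1 gene was called, they were 0 with the mean of all probe sets (7 at an unadjusted p below 0.05), 2 with the replicate block (FOXM1, at 0.69 with an adjusted p of 0.0368, beside CCNB2), 12 without both TPA arrays of number 1, 2 without all arrays of number 1, and 1 to 3 with 1 array left out. In ethanol, where 0 were called, they were 3 in a fit of only the 2 groups, 2 without both TPA arrays of number 1, 2 with the replicate block in a fit of the 2 groups, 1 without all arrays of number 1 and 0 with any 1 array left out. FOXM1 lost its call in TPA without all arrays of number 1 (adjusted p = 0.0919). Over all genes, the 647 calls in ethanol became 1206 with array weights, 148 without all arrays of number 1 and 369 to 787 with 1 array left out. The 2214 in TPA became 1241 in a fit of only the 2 groups, 1021 without all arrays of number 1 and 1532 to 2616 with 1 array left out. The 392 for the difference in response became 617 with array weights, 84 without all arrays of number 1 and 188 to 681 with 1 array left out. No result changed sign after a call. Every array correlated best with its own number in 4 of the 6 pairs of groups, as a hint from the data. Leaving out all arrays of number 1 and the 2-group block fits were chosen after seeing the data. Why the counts moved was not tested. Signals below 5.07 limit the size of the falls.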
